A study of Mus musculus with 34 samples.

Results

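*Crybb1*, *Slc2a5*, *Lag3*, *Selplg*, *Itgam* and *Mlph* are 6 genes of resident microglia that were lower in the brains of mice whose microglia had been replaced by bone marrow-derived cells. They were chosen because their values in these same libraries were lower after replacement (GFP-BM REPOP) than in unmanipulated mice (WT CON) in every region sampled. All 6 were found among the 16389 genes of the expression table. RNA was sequenced from the cortex, the hippocampus and the thalamus (dissected with the striatum) of male C57BL/6 mice. WT CON mice were neither irradiated nor transplanted. GFP-BM CON mice received 1000 cGy to the whole body and marrow from CAG-EGFP donors, in which EGFP is driven by a promoter active in nearly all cells, so that donor-derived cells are green. GFP-BM REPOP mice had the same irradiation and transplant and, 3.5 months later, 14 days of chow holding 600 ppm PLX3397, an inhibitor of CSF1R that kills microglia. After the inhibitor they were left for 6 months on control chow. Tissue of the transplanted mice was taken about 10 months after irradiation. Sources differ on their age at irradiation, which is 4 months in one place and 1.5 months in another. Each of the 34 libraries came from 1 region of 1 of 12 mice. The cortex was sampled from 3 WT CON mice and from 4 mice of each transplanted group, the hippocampus from 4 mice per group, and the thalamus from 3 GFP-BM CON mice and from 4 of each other group. Since irradiation and transplant were given together, the part of each in a difference from WT CON mice cannot be told apart.

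Microglia arise from the yolk sac, populate the brain before birth and renew themselves there, and they need signals through CSF1R to survive. Cells that enter the brain from the marrow can take up the place of microglia but come from another lineage. By staining, the study of these mice reported that such cells had little or no TMEM119 and lacked P2RY12, both markers of microglia. The 6 genes have different roles. *Itgam* encodes integrin alpha M (CD11b), which pairs with the *Itgb2* product to form complement receptor 3 and is made by microglia and by monocytes and macrophages alike. *Selplg* encodes PSGL-1, the ligand through which leukocytes roll on selectins. *Lag3* encodes an inhibitory receptor that binds MHC class II and is best known from T cells. *Slc2a5* encodes GLUT5, a fructose transporter that in the brain is found on microglia. *Crybb1* encodes a beta crystallin, a structural protein of the lens that is also transcribed in microglia. *Mlph* encodes melanophilin, which links Rab27a to myosin Va and is known from the transport of pigment granules.

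In RefSeq annotation of build GRCm38.p6, *Itgam* lies at chr7:128062640-128118491, *Selplg* at chr5:113817798-113832528, *Lag3* at chr6:124904359-124912434, *Slc2a5* at chr4:150119344-150144168, *Crybb1* at chr5:112254563-112269585 and *Mlph* at chr1:90915024-90951142. RefSeq start-site windows of 300 bases, most of them upstream of the start, were matched for 4 of the 6 genes (*Itgam*, *Slc2a5*, *Crybb1* and *Mlph*). The windows of *Itgam* (chr7:128062390-128062689, plus strand) and *Crybb1* (chr5:112255570-112255869, plus strand) are shown because these genes had the smallest and the largest difference of the 6. The *Crybb1* window lies inside the gene coordinates given above, so its start site is not the first base of the annotated gene. Capitals mark GAGGAA or its reverse complement, a core sequence read by the myeloid factor PU.1.
Itgam: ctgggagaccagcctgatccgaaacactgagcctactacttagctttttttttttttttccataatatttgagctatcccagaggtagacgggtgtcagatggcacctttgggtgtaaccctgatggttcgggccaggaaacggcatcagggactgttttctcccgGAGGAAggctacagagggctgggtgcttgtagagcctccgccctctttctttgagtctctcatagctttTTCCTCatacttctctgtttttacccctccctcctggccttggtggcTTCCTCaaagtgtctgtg
Crybb1: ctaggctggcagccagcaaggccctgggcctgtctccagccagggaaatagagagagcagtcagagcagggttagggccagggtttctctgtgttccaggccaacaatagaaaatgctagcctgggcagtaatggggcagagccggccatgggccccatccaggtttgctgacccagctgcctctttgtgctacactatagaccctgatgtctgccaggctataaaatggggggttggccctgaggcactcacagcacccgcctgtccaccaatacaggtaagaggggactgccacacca
GAGGAA was found on either strand in 28.3% of the 32851 mouse windows searched, and among the 4 windows only in that of *Itgam*, which held it 3 times. The other searched motifs were GGAAGT, another PU.1 core, in 23.8% of all windows and in 0 of the 4, the AP-1 motif TGANTCA in 7.81% and in 0 of the 4, and the E-box CANNTG in 72.3% and in 4 of the 4. A match of these letters is a description of the window and not a binding site.

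The authors gave the values as FPKM, which scales reads by gene length and library depth. Between 17085018 and 26010509 reads per library stood behind them, and single libraries held from 4 (*Mlph*) to 666 (*Itgam*) reads of the 6 genes. Of the 34 libraries, 3 labelled as hippocampus (WT CON replicate 2 and GFP-BM REPOP replicates 1 and 4) had a summed level of 8 hippocampal marker genes of 38.3 to 53.8 FPKM, within the range of the cortex libraries (33.3 to 62.5 FPKM), while the other hippocampus libraries had 104.2 to 248.5 FPKM. Most hippocampal differences and counts are given with and without these 3 low-marker libraries. The level of GC-rich relative to GC-poor genes also differed between groups. In the thalamus this log2 measure averaged 2.08 ± 1.14 (SD, n = 4) in WT CON and 0.67 ± 0.20 (n = 4) in GFP-BM REPOP libraries. Values corrected for GC content and length are given for the 5 tested genes of the 6 where they bear on a result. The values of other genes are not corrected.

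*Itgam* had the most reads of the 6 genes and the smallest difference. In the cortex its level was 4.58, 4.62 and 4.89 FPKM in WT CON libraries, 3.24, 3.36, 3.43 and 4.13 FPKM in GFP-BM CON, and 2.48, 2.59, 3.37 and 3.47 FPKM in GFP-BM REPOP libraries. In the hippocampus it was 5.04, 5.05, 5.18 and 5.28 FPKM in WT CON, 4.98, 5.05, 5.11 and 5.26 FPKM in GFP-BM CON, and 2.86, 2.93, 3.32 and 3.48 FPKM in GFP-BM REPOP libraries. In the thalamus it was 4.43, 4.89, 5.25 and 5.60 FPKM in WT CON, 3.69, 3.91 and 3.97 FPKM in GFP-BM CON, and 3.06, 3.20, 3.39 and 3.65 FPKM in GFP-BM REPOP libraries. WT CON and GFP-BM REPOP libraries did not overlap in any region, and hippocampus libraries of GFP-BM CON mice overlapped those of WT CON mice, with a mean of 99.2% of theirs. The mean of GFP-BM REPOP libraries was 63.4% (cortex), 61.2% (hippocampus) and 66.0% (thalamus) of the WT CON mean. These are levels in whole tissue, in which fewer cells that make a transcript and less of it in each cell cannot be told apart.

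*Selplg* stood at 3.93, 4.55 and 5.01 FPKM in WT CON, 2.75, 3.02, 3.12 and 3.28 FPKM in GFP-BM CON, and 0.820, 1.03, 1.68 and 1.73 FPKM in GFP-BM REPOP cortex libraries. In the hippocampus the levels were 4.08, 4.24, 4.92 and 5.86 FPKM, then 3.21, 3.75, 4.33 and 5.10 FPKM, then 0.835, 1.55, 1.82 and 3.08 FPKM in the same order of groups. In the thalamus they were 4.28, 4.62, 4.77 and 7.52 FPKM, then 2.33, 2.93 and 2.96 FPKM, then 1.19, 1.56, 1.69 and 1.91 FPKM. The 3 groups formed 3 separate steps in the cortex and in the thalamus, whereas in the hippocampus only the GFP-BM REPOP libraries stood apart. Their mean was 29.3% (cortex), 38.1% (hippocampus) and 29.96% (thalamus) of the WT CON mean.

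*Lag3* was measured at 3.00, 3.01 and 3.51 FPKM in WT CON, 1.06, 1.59, 1.80 and 1.92 FPKM in GFP-BM CON, and 0.468, 0.895, 0.907 and 1.18 FPKM in GFP-BM REPOP cortex libraries. The hippocampus gave 2.86, 3.23, 3.61 and 5.47 FPKM in WT CON, 1.70, 1.85, 2.30 and 2.60 FPKM in GFP-BM CON, and 0.802, 1.13, 1.19 and 1.32 FPKM in GFP-BM REPOP libraries. The thalamus gave 3.30, 3.51, 3.79 and 5.71 FPKM, 1.83, 1.94 and 1.95 FPKM, and 0.728, 1.07, 1.15 and 1.18 FPKM. Both transplanted groups were below WT CON mice without overlap in all 3 regions, and GFP-BM REPOP was below GFP-BM CON without overlap in the hippocampus and the thalamus. GFP-BM CON means were 50.2%, 55.7% and 46.7% of WT CON in the cortex, hippocampus and thalamus, and GFP-BM REPOP means were 27.1%, 29.3% and 25.3%.

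*Slc2a5* differed from the other tested genes in the cortex, where WT CON (1.45, 1.49 and 1.65 FPKM) and GFP-BM CON libraries (1.38, 1.48, 1.61 and 1.67 FPKM) covered the same range and GFP-BM REPOP libraries had 0.498, 0.623, 0.687 and 0.890 FPKM. In the hippocampus WT CON libraries had 2.15, 2.39, 2.45 and 2.45 FPKM, GFP-BM CON libraries 1.42, 1.49, 2.03 and 2.05 FPKM, and GFP-BM REPOP libraries 0.473, 0.540, 0.678 and 1.11 FPKM. In the thalamus these were 1.81, 2.20, 2.33 and 3.01 FPKM, 1.28, 1.35 and 1.36 FPKM, and 0.486, 0.561, 0.711 and 0.987 FPKM. The GFP-BM REPOP libraries reached a similar level in every region, with means of 0.67 ± 0.16, 0.70 ± 0.28 and 0.69 ± 0.22 FPKM (SD, n = 4 each), from WT CON means of 1.53 ± 0.11 (n = 3), 2.36 ± 0.15 (n = 4) and 2.34 ± 0.50 FPKM (n = 4). That left 44.2%, 29.7% and 29.4% of the WT CON mean.

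*Crybb1* had the lowest share left. Its cortex libraries held 3.98, 6.16 and 6.42 FPKM in WT CON, 2.04, 2.23, 2.77 and 3.55 FPKM in GFP-BM CON, and 0.656, 0.790, 1.14 and 1.25 FPKM in GFP-BM REPOP mice. Its hippocampus libraries held 5.31, 5.59, 6.34 and 7.85 FPKM, then 2.02, 2.51, 3.14 and 4.4 FPKM, then 0.704, 1.76, 1.77 and 1.96 FPKM in the same order. Its thalamus libraries held 3.69, 4.69, 5.98 and 7.81 FPKM, then 1.54, 2.06 and 2.54 FPKM, then 0.731, 0.816, 0.862 and 1.21 FPKM. In each region the 3 groups were ordered WT CON, GFP-BM CON, GFP-BM REPOP with no overlap between any of them. GFP-BM CON means were 48.0%, 48.1% and 36.9% of WT CON in the cortex, hippocampus and thalamus, and GFP-BM REPOP means were 17.4%, 24.7% and 16.3%.

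*Mlph* was the lowest of the 6 and did not reach an FPKM of 1 in 3 libraries, the filter on low values, so that it is described without a test. WT CON libraries had 0.475, 0.595 and 0.610 FPKM in the cortex, 0.497, 0.649, 0.720 and 1.24 FPKM in the hippocampus, and 0.431, 0.547, 0.738 and 1.05 FPKM in the thalamus. GFP-BM CON libraries had 0.379 to 0.548 FPKM in the cortex, 0.423 to 0.491 FPKM in the hippocampus and 0.338 to 0.506 FPKM in the thalamus. GFP-BM REPOP libraries had 0.0444, 0.0581, 0.185 and 0.256 FPKM in the cortex, 0.0633, 0.187, 0.345 and 0.456 FPKM in the hippocampus, and 0.173, 0.217, 0.248 and 0.304 FPKM in the thalamus. GFP-BM REPOP libraries lay below WT CON libraries in each region with no overlap, on 4 to 37 reads per library, and 1 hippocampus library reached into the range of GFP-BM CON.

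**Figure D1:**
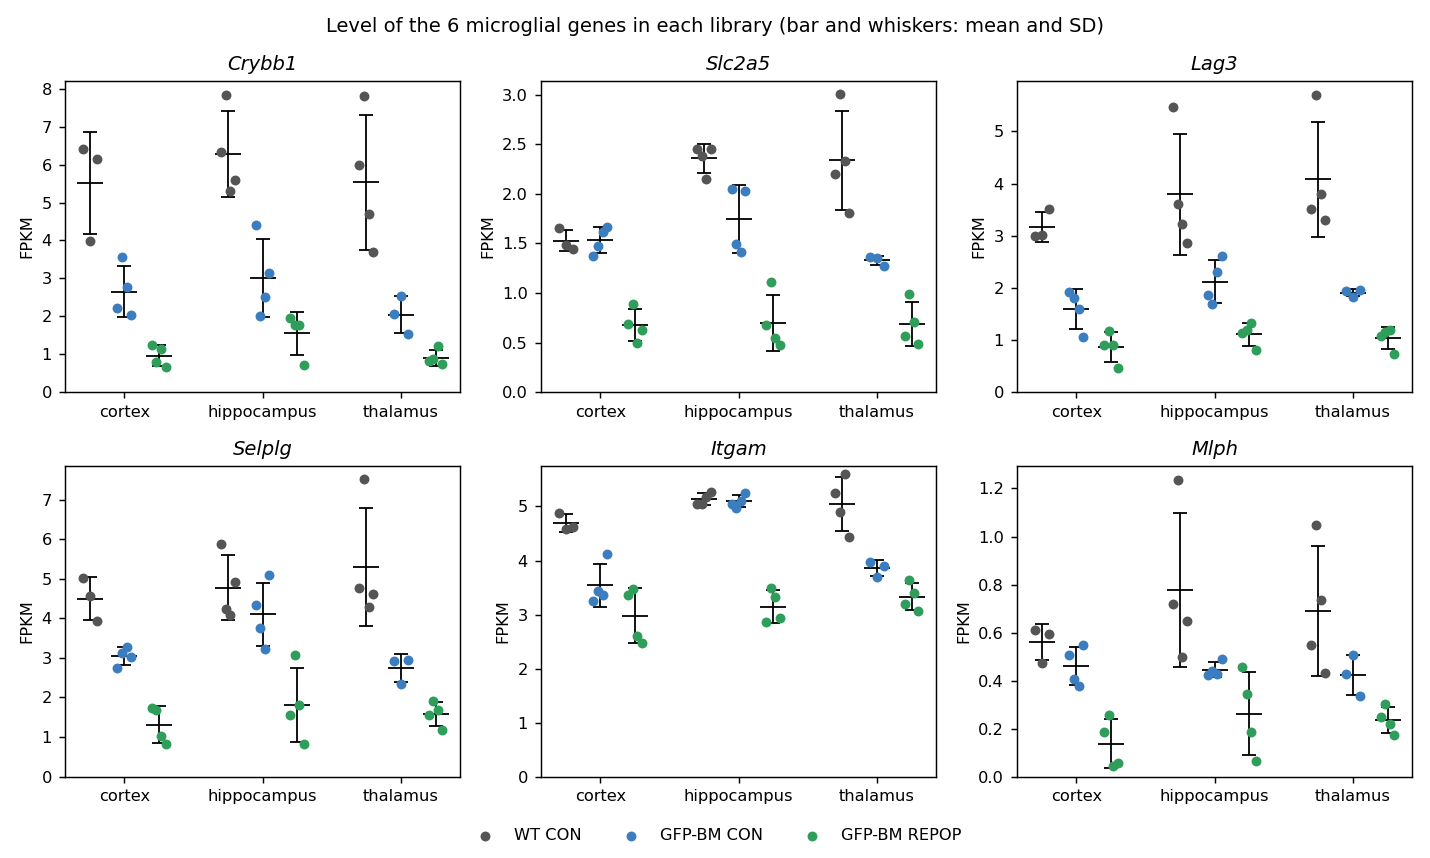
FPKM (linear axis from 0) of the 6 genes in each of the 34 libraries, by region and group, with 1 point per library and the mean and SD as bar and whiskers. GFP-BM REPOP points lie below all WT CON points in every panel and region, and GFP-BM CON points lie between them for *Crybb1*, whereas *Slc2a5* in the cortex and *Itgam* in the hippocampus have GFP-BM CON points at the WT CON level.

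In each region all 6 genes were thus lower after replacement than in WT CON libraries, without overlap. Among all 14710 genes tested, 4.6% (cortex), 1.88% (hippocampus) and 6.87% (thalamus) had this pattern, but the genes were chosen by this contrast, so the count is a description. For the same reason no test is given for it. By limma with a Benjamini-Hochberg adjusted p under 0.05, this contrast called 0.734% (cortex), 0.0136% (hippocampus) and 0.836% (thalamus) of all genes. On the log2(FPKM + 0.1) scale, which understates differences at low levels, the median difference of the 6 genes was -1.67, -1.56 and -1.66 in cortex, hippocampus and thalamus, where the medians of all tested genes were 0.02, 0.004 and -0.05.

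The genes differed in the size of the difference, with the same gene at either end of the order in all 3 regions. *Crybb1* came first in every region, at -2.42 ± 0.25, -2.02 ± 0.31 and -2.46 ± 0.25 in cortex, hippocampus and thalamus (log2 difference ± SE). *Itgam* came last in every region, at -0.65 ± 0.13, -0.69 ± 0.12 and -0.58 ± 0.11. *Lag3* (-1.82 ± 0.26, -1.66 ± 0.24 and -1.87 ± 0.20) and *Selplg* (-1.75 ± 0.22, -1.46 ± 0.31 and -1.66 ± 0.20) lay next to each other in every region. *Slc2a5* moved in the order, from next to *Itgam* in the cortex (-1.09 ± 0.17) to next to *Crybb1* in the hippocampus (-1.68 ± 0.25) and level with *Selplg* in the thalamus (-1.65 ± 0.22). *Mlph*, fitted with no filter on low values, stood at -1.58 ± 0.30, -1.35 ± 0.37 and -1.19 ± 0.26. Within libraries, the difference of *Crybb1* exceeded that of *Itgam* by 1.76 ± 0.31, 1.33 ± 0.33 and 1.87 ± 0.26 in cortex, hippocampus and thalamus on the log2 scale, and the ratio of both genes separated the groups without overlap each time. Of the 15 pairs of genes, the ratios of 8 (cortex), 3 (hippocampus) and 12 (thalamus) separated GFP-BM REPOP from WT CON libraries without overlap. The share among all pairs of genes was not computed, and this contrast chose the genes, so these counts are a description. The 3 pairs in the hippocampus were *Itgam* against *Crybb1*, *Lag3* and *Slc2a5*, and no neighbours in the order there were separated in this way. Without the 3 hippocampus libraries low in hippocampal markers 7 pairs separated the groups there, the same 3 and *Selplg* and *Mlph* each against *Crybb1* and *Slc2a5*.

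**Figure D2:**
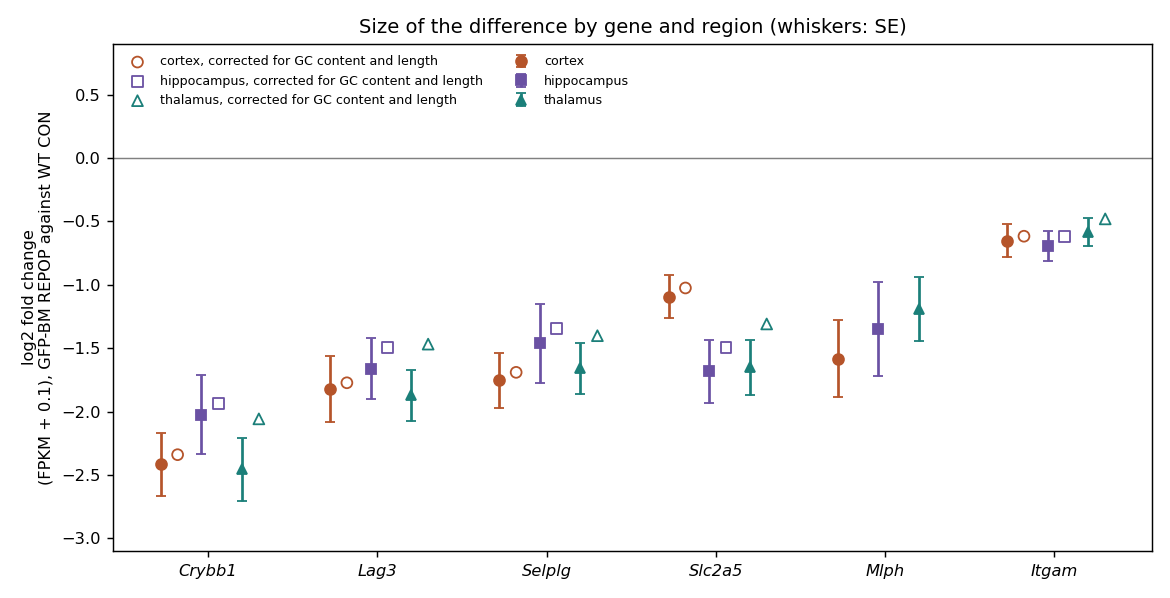
Log2 difference in FPKM + 0.1 between GFP-BM REPOP and WT CON libraries for each gene and region, with the SE of the fit as whiskers. Open symbols are the values after correction for GC content and length, which *Mlph* lacks. *Crybb1* lies lowest and *Itgam* highest in every region, and the open symbols of all 5 genes lie nearer to 0 than the filled ones.

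The correction for GC content and length made the differences smaller, most of all in the thalamus. *Crybb1* moved from -2.46 to -2.06 there, *Lag3* from -1.87 to -1.47, *Slc2a5* from -1.65 to -1.31, *Selplg* from -1.66 to -1.40 and *Itgam* from -0.58 to -0.48. The longest transcripts of *Crybb1* (61.8% GC) and *Lag3* (59.9%) are the richest in GC of the 6, and that of *Itgam* (48.9%) the poorest. Leaving out the 3 hippocampus libraries with low hippocampal markers changed the hippocampal difference of *Crybb1* to -1.65 ± 0.31, of *Slc2a5* to -1.48 ± 0.33, of *Lag3* to -1.49 ± 0.32, of *Selplg* to -1.02 ± 0.29 and of *Itgam* to -0.59 ± 0.16. All 5 remained below 0, with 2 GFP-BM REPOP and 3 WT CON libraries left.

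Whether the differences depended on the region was tested in 1 fit of the 9 groups, in which the mouse was a random block. The genes were chosen for being lower in every region, and that choice itself favours small differences between regions. A lack of calls here therefore does not show that the regions are alike. None of the 5 tested genes passed in any of the 3 pairs of regions, with a smallest adjusted p of 0.595 (limma), and 0 passed by voom or at an unadjusted p under 0.05 (5.79%, 5.25% and 9.99% of all genes). By adjusted p, of all genes, 0.034% were called for hippocampus against cortex, 0% for thalamus against cortex and 0.034% for thalamus against hippocampus. *Slc2a5* came closest, with a difference from WT CON mice that was larger in the hippocampus than in the cortex by 0.59 on the log2 scale (-0.59, 95% interval -1.23 to 0.06, adjusted p = 0.908) and larger in the thalamus than in the cortex (-0.56, -1.20 to 0.09, adjusted p = 0.595). After correction for GC content and length these values were -0.47 and -0.28. For *Itgam* the 3 contrasts were -0.04 (-0.36 to 0.28), 0.07 (-0.25 to 0.39) and 0.11 (-0.20 to 0.42) for hippocampus minus cortex, thalamus minus cortex and thalamus minus hippocampus. *Crybb1* had wider intervals, at 0.39 (-0.49 to 1.27), -0.04 (-0.92 to 0.84) and -0.43 (-1.28 to 0.41). *Lag3* (0.16, -0.05 and -0.21) and *Selplg* (0.29, 0.09 and -0.20) lay between. Differences between regions of up to 1.28 on the log2 scale for *Crybb1*, and of up to 0.42 for *Itgam*, are thus within these intervals. Without the 3 hippocampus libraries low in hippocampal markers the values for hippocampus minus cortex were 0.79 ± 0.43 for *Crybb1*, 0.75 ± 0.37 for *Selplg*, 0.35 ± 0.40 for *Lag3*, 0.07 ± 0.18 for *Itgam* and -0.36 ± 0.35 for *Slc2a5*, and 0 of the 5 genes passed.

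WT CON mice served to compare the starting levels. *Slc2a5* was the 1 called gene of 5, higher in the hippocampus than in the cortex by 0.60 ± 0.23 on the log2 scale (adjusted p = 0.043, limma), where 36.9% of all genes were called. *Slc2a5* was 0.56 ± 0.23 higher in the thalamus than in the cortex (adjusted p = 0.063), where 0 of the 5 genes and 30% of all genes passed, and -0.03 ± 0.21 in the thalamus against the hippocampus (adjusted p = 0.935), where 0 of 5 and 17.7% passed. At an unadjusted p under 0.05, 1 of the 5 passed for hippocampus against cortex (47.5% of all genes), 1 for thalamus against cortex (44.1%) and 0 for thalamus against hippocampus (31.5%). The hippocampal call rests on the processing: the log2 value became 0.16 once GC content and length were corrected for, and the adjusted p became 0.061 without the libraries with low hippocampal markers. It was made in 28 of the 34 fits that left out 1 library and lost without any of the 3 WT CON cortex libraries or without WT CON hippocampus replicates 1, 2 or 4.

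The GFP-BM CON mice divide the difference into 2 steps, that seen with irradiation and transplant and that seen when the inhibitor was added. Both steps share a group with the contrast that chose the genes, and they share GFP-BM CON with each other, so their p-values are not independent of the choice. At the first step, in single regions, 0 of the 5 tested genes were called by limma in the cortex, hippocampus or thalamus (smallest adjusted p 0.120, 0.087 and 0.058), against 0.32%, 0% and 0% of all genes. At an unadjusted p under 0.05, 4, 2 and 5 of the 5 passed, as did 16%, 23.9% and 20.7% of all genes, and voom on the recovered reads called 0 in each region. GFP-BM CON libraries were below WT CON libraries without overlap for 4 (cortex), 4 (hippocampus) and 5 (thalamus) of the 6 genes, as were 4.43%, 8.32% and 8.43% of all genes. The hippocampal count was again 4 without the low-marker libraries, against 10.3% of all genes. *Crybb1* had the largest values of this step, -1.03 ± 0.25, -1.07 ± 0.31 and -1.37 ± 0.27 in the cortex, hippocampus and thalamus. *Lag3* followed with -0.98 ± 0.26, -0.79 ± 0.24 and -1.03 ± 0.22. *Selplg* had -0.55 ± 0.22, -0.22 ± 0.31 and -0.90 ± 0.22, and *Itgam* -0.40 ± 0.13, -0.01 ± 0.12 and -0.37 ± 0.12. *Slc2a5* had 0.003 ± 0.172, -0.43 ± 0.25 and -0.75 ± 0.24, from a value near 0 in the cortex to its largest in the thalamus. The correction for GC content and length brought most of these values nearer to 0. *Slc2a5* then had 0.09, -0.11 and -0.39, and *Lag3* -0.89, -0.43 and -0.61. *Crybb1* had -0.93, -0.77 and -0.94, *Selplg* -0.47, 0.02 and -0.63, and *Itgam* -0.36, 0.09 and -0.27 after it. Without the 3 hippocampus libraries low in hippocampal markers the first step there was -0.96 ± 0.26 for *Crybb1*, -0.80 ± 0.27 for *Lag3*, -0.42 ± 0.28 for *Slc2a5*, -0.27 ± 0.24 for *Selplg* and -0.02 ± 0.13 for *Itgam*, with 0 of the 5 called.

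These first steps were also compared between regions. Of the 5 tested genes, 0 were called by limma in each pair (0%, 0% and 0% of all genes), and 0 by voom. At an unadjusted p under 0.05, 1 of 5 passed in each pair, as did 10.1% (hippocampus against cortex), 3.45% (thalamus against cortex) and 2.63% (thalamus against hippocampus) of all genes. These were *Itgam* for hippocampus against cortex (0.39, 95% interval 0.07 to 0.71, adjusted p = 0.494) and for thalamus against hippocampus (-0.36, -0.68 to -0.04, adjusted p = 1.00), and *Slc2a5* for thalamus against cortex (-0.75, -1.42 to -0.08, adjusted p = 0.707), which was -0.48 after the correction for GC content and length.

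At the second step, GFP-BM REPOP against GFP-BM CON, 1 (cortex), 0 (hippocampus) and 0 (thalamus) of the 5 genes were called, as were 0.0476%, 0.0272% and 0% of all genes. The called gene was *Slc2a5*, which fell in the cortex by 1.10 on the log2 scale (-1.10 ± 0.16, adjusted p = 0.040, limma). The call was made in 1 of the 11 fits that left out a cortex library (without GFP-BM REPOP replicate 2) and was lost without any other, with an adjusted p of up to 0.186, while its log2 difference stayed between -1.22 and -0.98. At an unadjusted p under 0.05, 4 (cortex), 5 (hippocampus) and 4 (thalamus) of the 5 genes passed, as did 4.27%, 11.7% and 0.945% of all genes, and voom called 1, 1 and 0. GFP-BM REPOP libraries were below GFP-BM CON libraries without overlap for 4 (cortex), 5 (hippocampus) and 6 (thalamus) of the 6 genes, as were 1.68%, 2.76% and 2.24% of all genes. The hippocampal count was 6 without the low-marker libraries, against 8.07% of all genes. *Crybb1* had -1.38 ± 0.23, -0.95 ± 0.31 and -1.09 ± 0.27 at this step, *Selplg* -1.21 ± 0.20, -1.24 ± 0.31 and -0.76 ± 0.22, and *Lag3* -0.84 ± 0.24, -0.87 ± 0.24 and -0.85 ± 0.22. *Slc2a5* had -1.25 ± 0.25 in the hippocampus and -0.90 ± 0.24 in the thalamus. *Itgam* showed -0.25 ± 0.12 in the cortex and -0.21 ± 0.12 in the thalamus, and -0.68 ± 0.12 in the hippocampus, the region in which its first step was near 0. Without the 3 hippocampus libraries low in hippocampal markers the second step there was -1.05 ± 0.31 for *Slc2a5*, -0.74 ± 0.28 for *Selplg*, -0.69 ± 0.31 for *Lag3*, -0.68 ± 0.29 for *Crybb1* and -0.57 ± 0.15 for *Itgam* (adjusted p = 0.495 each, limma).

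**Figure D3:**
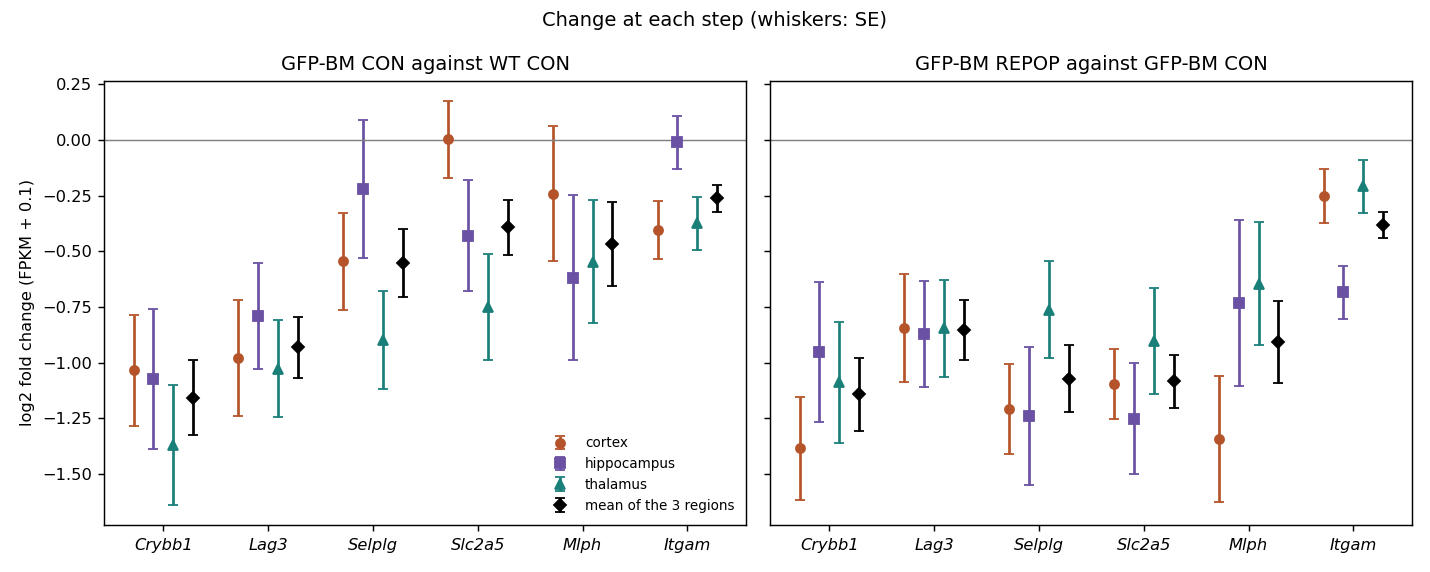
Log2 difference in FPKM + 0.1 at the first step (left, GFP-BM CON against WT CON) and the second step (right, GFP-BM REPOP against GFP-BM CON) for each gene, by region and as the mean of the 3 regions, with the SE as whiskers. The values are not corrected for GC content. In the mean of the 3 regions *Crybb1* and *Lag3* have steps of like size here, and *Slc2a5* and *Selplg* lie lower on the right than on the left.

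Averaged over the 3 regions, both steps were called for all 5 tested genes, in a comparison added after the data were seen. The fit used 1 block correlation for all genes (-0.038), so the 3 regions of a mouse counted as nearly independent. Yet the mouse of GFP-BM REPOP replicate 4 had the lowest *Crybb1* of its group in every region (0.656, 0.704 and 0.731 FPKM). The same held for *Lag3* and *Selplg*, so the p-values of these means may be too small. For the first step 29.9% of all genes were called and 11.6% were called lower, so that a call there is common. For the second step 0.381% of all genes were called and 0.15% were called lower, which is 22 genes, 5 of them from these 6. The second step shares the GFP-BM REPOP libraries with the contrast that chose the genes. That count is therefore in part set by the choice and is a description. At the first step all 5 fell, by a log2 difference of -1.16 ± 0.17 for *Crybb1* (adjusted p = 2.73e-05, limma), -0.93 ± 0.14 for *Lag3* (adjusted p = 3.07e-05), -0.55 ± 0.15 for *Selplg* (adjusted p = 0.0087), -0.39 ± 0.12 for *Slc2a5* (adjusted p = 0.018) and -0.26 ± 0.06 for *Itgam* (adjusted p = 0.0024). At the second step all 5 fell again, with -1.14 ± 0.16 for *Crybb1*, -1.08 ± 0.12 for *Slc2a5*, -1.07 ± 0.15 for *Selplg*, -0.85 ± 0.13 for *Lag3* and -0.38 ± 0.06 for *Itgam*, and adjusted p of 6.12e-06 (*Slc2a5*) to 6.94e-04 (*Lag3*). *Mlph*, from the fit with no filter on low values, had -0.47 ± 0.19 and -0.91 ± 0.18, given without a test. The values of both steps lay close together for *Crybb1* and *Lag3*, and that of the second was farther from 0 for *Slc2a5* and *Selplg*. After correction for GC content and length the second value was farther from 0 for all 5 genes, at -0.88 and -1.23 for *Crybb1*, -0.65 and -0.93 for *Lag3*, -0.36 and -1.12 for *Selplg*, -0.14 and -1.14 for *Slc2a5*, and -0.18 and -0.40 for *Itgam*. The difference between the 2 steps was not tested, since GFP-BM CON enters both with opposite signs. Without the 3 hippocampus libraries low in hippocampal markers all 5 calls were made at both steps. Once GC content and length were corrected for, *Slc2a5* lost its call at the first step (adjusted p = 0.392) while the other 4 genes were called, and 5 of 5 at the second step.

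The genes that work with each of the 6 were compared next, from lists drawn up with earlier results of these data known. In GFP-BM REPOP against WT CON, 0 of the 6 tested partners of *Itgam*, 0 of 3 of *Selplg*, 0 of 7 of *Lag3*, 0 of 9 of *Slc2a5*, 0 of 5 of *Mlph* and 0 of 5 crystallins were called by limma in any region. Of all genes, 0.734% (cortex), 0.0136% (hippocampus) and 0.836% (thalamus) were called. Counts of 0 in lists this short thus do not show that the partners were unchanged. Each of these lists had at most 4 genes at an unadjusted p under 0.05 in a region, where 14.3%, 9.67% and 25% of all genes passed. Without the low-marker libraries 0 of these and 0 of all genes were called in the hippocampus, with at most 1 gene of a list at an unadjusted p under 0.05. *Itgb2*, the beta subunit that pairs with *Itgam*, had log2 differences of -0.22, -0.25 and -0.38 (adjusted p = 0.674, 0.674 and 0.231) in the cortex, hippocampus and thalamus, and 0.09 in the hippocampus without the low-marker libraries. *C3*, whose fragment is the ligand of that receptor, had 0.65, -0.004 and 0.48. *Fermt3*, an integrin activator, had -0.20, -0.33 and -0.19. Among the ligands of *Lag3*, the MHC class II genes *H2-Aa* (0.63, -0.26 and 0.36) and *H2-Ab1* (0.54, -0.31 and 0.67) and the galectin *Lgals3* (0.26, 0.23 and 0.91) were not called. *Slc2a1*, the main glucose transporter of the brain's vessels, had -0.11, -0.13 and -0.39, and *Khk*, the first enzyme of fructose use, -0.02, -0.05 and -0.31. *Rab27a*, the partner of melanophilin, had -0.05, -0.70 and -0.11. *Cryab*, another crystallin, had -0.21, 0.38 and -0.44. In the mean of the regions at the first step 4 partners were called. *Adam10* rose by 0.61 (adjusted p = 0.026), *Myo5a* by 1.10 (adjusted p = 0.0018), *Rab27b* by 1.18 (adjusted p = 8.8e-04), and *Slc2a3* fell (-0.20, adjusted p = 0.021), in a comparison in which 29.9% of all genes were called. At the second step 0 were called, and 0 had an unadjusted p under 0.05 (8.39% of all genes). The counts were 4 and 0 again without the low-marker libraries. None of these partner values is corrected for GC content and length.

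In the median, other genes of resident microglia differed from WT CON mice by less than the 6 genes. The 6 genes were chosen by GFP-BM REPOP against WT CON, so their larger median is in part set by the choice and is a description. Of 12 homeostatic microglial genes, 4 (cortex), 0 (hippocampus) and 0 (thalamus) were called lower in GFP-BM REPOP against WT CON mice and 0 higher, with 10, 5 and 8 lower at an unadjusted p under 0.05 (limma) and 1, *Fcrls*, higher in the thalamus. Of all genes, 0.734%, 0.0136% and 0.836% were called, and 14.3%, 9.67% and 25% passed that unadjusted threshold. Their median log2 difference was -0.43, -0.38 and -0.43, and the medians of the 6 genes were -1.67, -1.56 and -1.66. Without the low-marker libraries the hippocampal median of the list was -0.13, with 0 called and, at an unadjusted p under 0.05, 0 lower and 1 (*Trem2*) higher. *Fcrls* and *Trem2*, an Fc receptor-like gene and a lipid-sensing receptor, were named after their values were seen. Among those that fell in the cortex were the lectin gene *Siglech* (-1.09, adjusted p = 0.0019), *Tmem119*, a membrane protein of microglia (-0.86, adjusted p = 0.018) and *Csf1r*, the receptor blocked by the inhibitor (-0.40, adjusted p = 0.021). *Siglech* and *Tmem119* thus lay farther from 0 than *Itgam* there (-0.65). Like the 6 genes, *Siglech* was listed by the study as lower on these same samples, so its p-values here and below are not independent of that choice. Averaged over the regions, *Csf1r* fell at the first step (-0.76, adjusted p = 1.15e-06) and had 0.27 at the second (adjusted p = 0.168), whereas *Siglech* had -0.14 at the first (adjusted p = 0.451) and fell at the second (-0.71, adjusted p = 0.0070). *P2ry12*, a purinergic receptor of microglia, rose at the first step (1.12, adjusted p = 0.0040) and had -1.06 at the second (adjusted p = 0.091). In these means 29.9% of all genes were called at the first step and 0.381% at the second. By staining of the hippocampus, the study reported fewer P2RY12-positive myeloid cells in both transplanted groups, the other direction from the RNA at the first step. That is a count of cells with the protein and not an RNA level. The values of this list are not corrected for GC content and length, although the GC measure differed between groups. Without the low-marker libraries the second step of *Siglech* was -0.67 (adjusted p = 0.038), and *Csf1r* and *P2ry12* were again called at the first step and not at the second.

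Of 13 tested genes of all myeloid cells, 0 were called by limma in any region in GFP-BM REPOP against WT CON mice, with medians of 0.05, 0.16 and -0.08, and 4, 0 and 2 genes at an unadjusted p under 0.05. Of all genes, 0.734%, 0.0136% and 0.836% were called, and 14.3%, 9.67% and 25% passed that unadjusted threshold. The hippocampal median was 0.43 without the low-marker libraries, with 0 called and 0 at an unadjusted p under 0.05. *Tyrobp*, a signalling adaptor, had 0.05, 0.16 and 0.08, and *Aif1*, which encodes IBA1, 0.14, 0.39 and 0.21. The study had chosen genes on these samples as marks of engrafted myeloid cells, which is no independent evidence of their direction. Of those tested, 9 of 9 were called higher in the cortex and 8 of 9 in the thalamus. In the hippocampus 0 of 9 were called, where 0.0136% of all genes were, and all 9 had an unadjusted p under 0.05 (9.67% of all genes). *Ms4a7* had 3.96, 3.09 and 3.98 and *Apobec1* 1.73, 1.61 and 1.96. Of 5 border macrophage genes, 2 were called higher in the cortex, *Mrc1* (1.78, adjusted p = 0.0066) and *Stab1* (0.76, adjusted p = 0.021), none in the hippocampus (1 at an unadjusted p under 0.05), and *Mrc1* in the thalamus (1.59, adjusted p = 0.044). *Mrc1* is also on the list the study chose. The hippocampal counts of both lists were the same without the low-marker libraries, with 0 called and 9 and 1 genes at an unadjusted p under 0.05. *Lag3* is known from lymphocytes and *Mlph* from pigment cells. Of 8 T and NK lymphocyte markers 2 were measured, and *Cd3e*, *Cd3d*, *Cd3g* and *Cd8a* were not analysed here. The summed level of the 2 measured markers was 3.35 to 6.63 FPKM in WT CON and 1.83 to 3.33 FPKM in GFP-BM REPOP cortex libraries. In the hippocampus it was 0.953 to 5.50 FPKM in WT CON and 0.818 to 1.29 FPKM in 3 GFP-BM REPOP libraries, with 16.5 FPKM in replicate 4, one of the low-marker libraries. In the thalamus it was 2.05 to 7.16 FPKM and 1.70 to 3.26 FPKM, and these ranges overlap. Of 6 pigment cell markers 3 were measured, with sums of 0.34 to 0.46 FPKM in WT CON and 0.43 to 0.80 FPKM in GFP-BM REPOP cortex libraries, 0.534 to 1.66 and 0.379 to 0.882 FPKM in the hippocampus, and 0.556 to 1.06 and 0.584 to 1.62 FPKM in the thalamus, and *Tyr* and *Mlana* were not analysed here. Of 8 neutrophil markers 2 were measured, with sums of 0.757 to 1.06 FPKM in WT CON and 0.235 to 0.747 FPKM in GFP-BM REPOP cortex libraries, 0.179 to 3.27 and 0.612 to 1.66 FPKM in the hippocampus, and 0.518 to 3.02 and 0.411 to 3.39 FPKM in the thalamus, and *Ly6g* and *Mpo* were not analysed here. The 6 choroid plexus genes summed to 415.7 to 457.3 FPKM in WT CON and 55.1 to 372.8 FPKM in GFP-BM REPOP cortex libraries. In the hippocampus they spread most, at 24.8 to 6528 FPKM in WT CON, 52.4 to 6396 FPKM in GFP-BM CON and 78.9 to 290.6 FPKM in GFP-BM REPOP libraries. In the thalamus the median was 181.3 FPKM in WT CON and 272.4 FPKM in GFP-BM REPOP libraries, which overlapped. The part of these cells in the differences of the 6 genes was not tested.

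**Figure D4:**
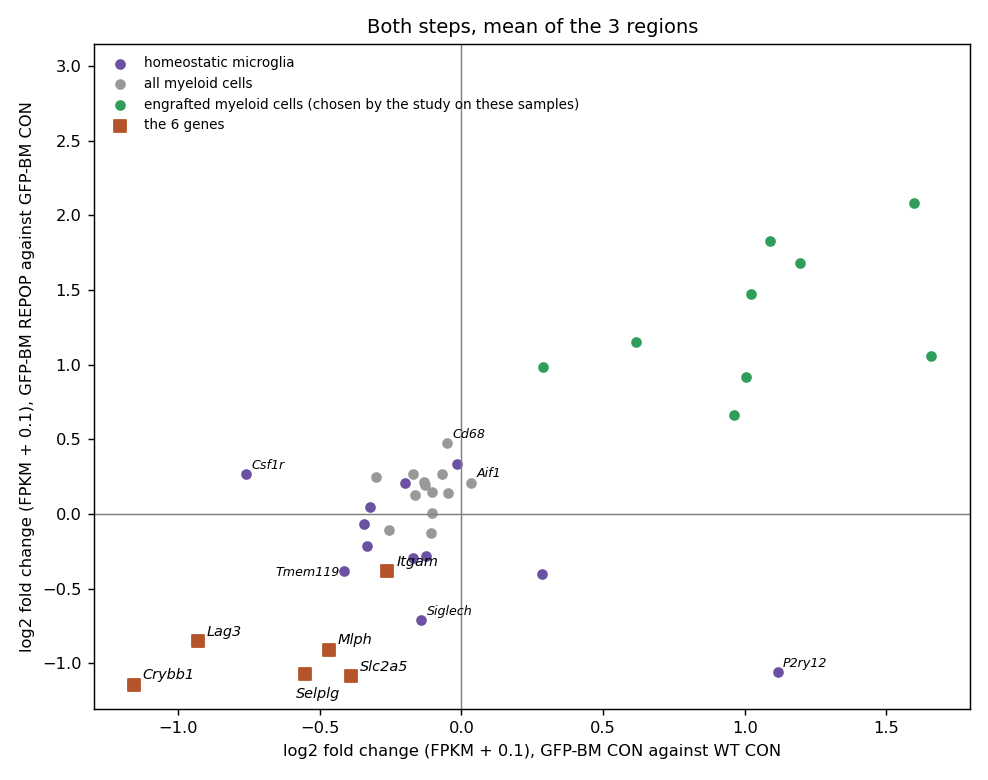
Log2 difference in FPKM + 0.1, mean of the 3 regions, at the first step (horizontal) and the second step (vertical) for the 6 genes and for 3 lists of genes, with 1 point per gene. Both axes contain the GFP-BM CON libraries, and the values are not corrected for GC content and length. The 6 genes lie at the lower left, genes of all myeloid cells near the centre, and genes that the study chose as marks of engrafted cells at the upper right.

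Across the 34 libraries, centred by region, the 6 genes varied together, with Pearson correlations of 0.79 (*Itgam* and *Mlph*) to 0.94 (*Slc2a5* and *Selplg*). The libraries share the group differences that chose the genes and share mice, so these values are a description. Among the other tested genes, the profile most like the mean of the 6 was that of *Tmem119* (r = 0.91), followed by *Gm10790* (0.89) and *Mlxipl*, which encodes a glucose-responsive transcription factor (0.83). Next came a gene with no symbol in the table (0.83), *Tmem254c*, *Tmem254a* and *Tmem254b* (0.83, 0.82 and 0.82), *Entpd4b* (0.81), the chemokine gene *Ccl21b* (0.81) and another gene with no symbol (0.81). *Gm10790* had log2 differences from WT CON to GFP-BM REPOP of -2.20, -1.54 and -1.61 in the cortex, hippocampus and thalamus, and *Ccl21b* had -4.18, -2.15 and -3.53. The *Tmem254*, *Entpd4* and *Ccl21* genes lie in families of near-identical copies among which reads can be split, and their values are uncertain.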

How the data were processed

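Paired reads of 150 bases were aligned by the authors with STAR. The authors assigned them to Entrez genes with featureCounts (Rsubread) and deposited FPKM values of 34 libraries, computed with limma and edgeR. The labels name build mm10. Which library was read on NovaSeq or HiSeq instruments is not given in the sources used here. Whole reads were recovered from the steps between values (100.0% of values whole within 0.01 reads, 17085018 to 26010509 per library). Groups, regions and mice came from the labels. Within groups, all 48 pairs of libraries differed beyond sampling noise.

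The members and gene lists were chosen with earlier results of these data known. log2(FPKM + 0.1) was fitted with limma 3.58.1 (trend) in R 4.3.3, per region with 3 groups, two-sided, for 14710 genes with an FPKM of at least 1 in 3 libraries and without 343 genes of other biotypes. Regions were compared in a fit of 9 groups with the mouse as a random block (correlation -0.038). Calls had a Benjamini-Hochberg adjusted p under 0.05 over all genes. GFP-BM REPOP against WT CON chose the genes and was not tested for them. The differences of the first step between regions, the means of 3 regions, the correction for GC content and length (splines of 5 degrees of freedom, 13875 genes, 94.3%) and leaving out the hippocampus libraries with low hippocampal markers were added after the data were seen. Named were the 6 genes, the 10 genes most correlated with their mean, the first genes of each list and those of its genes with the largest change among those called. Tests were tried on simulated data. Numbers in the labels name replicates within a group and do not pair mice. Python 3.11.15 with numpy 2.4.6, pandas 2.3.3 and matplotlib 3.10.9 was used for the rest. A gene of the homeostatic microglial list is not reported by name here.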

Additional observations from a re-analysis of the deposited data

Results flagged for a closer look

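In GFP-BM REPOP hippocampus replicate 4, *Crybb1* stood at 0.704 FPKM, while the other 3 libraries of the group had 1.76 to 1.96 FPKM. It is far from the others for a group of 4 on the log2 scale, with a gap of 0.889 of the group's range (Dixon's test at its 95% critical value). It was the 1 such value among 42 groups of 4 examined, in which chance gives about 1 in 20. The same library is among those with low hippocampal markers. The cortex and thalamus libraries of this mouse also had the lowest *Crybb1* of their groups (0.656 and 0.731 FPKM).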

How the results depend on the processing

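Counts below are of the 5 tested genes, and differences are log2. The median difference of the 6 genes from WT CON to GFP-BM REPOP stayed below 0 under all alternatives run. With a pseudocount of 1 it was -0.89, -1.04 and -1.12 in the cortex, hippocampus and thalamus, and in the thalamus it was -2.10 with quantile normalization and -1.36 with the GC and length correction. At the second step (GFP-BM REPOP against GFP-BM CON), cortex calls numbered 2 with a pseudocount of 1 and with the GC correction, and 0 with the stricter filter or only the 2 groups compared. In the hippocampus they numbered 1 with voom and 4 with all 9 groups in 1 fit. Calls of GFP-BM CON against WT CON numbered 2 in the hippocampus with all 9 groups in 1 fit, and in the thalamus 2 with a pseudocount of 1, 4 with quantile normalization and 5 with all 9 groups. The *Slc2a5* call between WT CON hippocampus and cortex became 0 with a pseudocount of 0.01, median-ratio scaling, the GC correction or without the low-marker hippocampus libraries, and quantile normalization gave 2. For WT CON thalamus against cortex a pseudocount of 1, quantile normalization and voom each gave 1. With a replicate block, for numbers that do not pair mice (correlation of deviations -0.056), 0 genes were called at the second step in the cortex and 0 for WT CON hippocampus against cortex, and no other count changed. The causes were not tested.

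Leaving out 1 library at a time gave 0 to 2 calls at the second step in the cortex, 0 to 3 for GFP-BM CON against WT CON in the thalamus (3 without WT CON replicate 1), 0 to 1 for WT CON hippocampus against cortex and 0 to 1 for thalamus against cortex (1 without WT CON thalamus replicate 4 or GFP-BM REPOP hippocampus replicate 2).

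Sign changes were found among uncalled differences near 0. For GFP-BM CON against WT CON, cortical *Slc2a5* became -0.11 with quantile normalization, -0.00781 with median-ratio scaling, -0.000235 with voom, -0.00384 with the replicate block and -0.036 to 0.057 with 1 library left out. Hippocampal *Selplg* became 0.024 with the GC correction, and *Itgam* 0.024 with median-ratio scaling, 0.091 with the GC correction and -0.025 to 0.0019 with 1 library left out. In the difference between hippocampus and cortex, *Itgam* became 0.039 with quantile normalization, 0.000402 with median-ratio scaling and 0.068 without the low-marker libraries, and 1 library left out gave -0.12 to 0.039, with -0.088 to 0.35 for *Lag3* and -0.0075 to 0.60 for *Selplg*. Between thalamus and cortex, *Crybb1* became 0.031 with the replicate block and 0.28 with the GC correction, *Lag3* 0.017 and 0.30, *Selplg* -0.00176 with a pseudocount of 1 and -0.18 with quantile normalization, and *Itgam* -0.14 with the latter. Here 1 library left out gave -0.21 to 0.18 for *Crybb1*, -0.30 to 0.11 for *Lag3*, -0.11 to 0.27 for *Selplg* and -0.012 to 0.15 for *Itgam*. Between thalamus and hippocampus, *Slc2a5* became -0.52 with quantile normalization and -0.19 without the low-marker libraries, *Itgam* -0.18 with quantile normalization, and *Lag3* 0.028 with the GC correction. There 1 library left out gave -0.15 to 0.26 for *Slc2a5* and -0.51 to 0.10 for *Selplg*. WT CON *Slc2a5* in thalamus against hippocampus became 0.12 with the GC correction and -0.16 to 0.077 with 1 library left out. Depth limits *Mlph* most, with 4 reads in its lowest library.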
